A study of Homo sapiens with 4 samples.

Results

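Unfolded protein, integrated stress and heat shock genes were examined in THP-1, a long-established human cell line of acute monocytic leukaemia origin. The 34 genes had been listed by name and fall into 3 arms: 11 of the endoplasmic reticulum (ER) response, 11 of the ATF4 response and 12 of the heat shock response. All 34 had a probe set, a group of probes that reads part of a transcript, among the 54675 on the array. HSPA1A and HSPA1B share their probe sets and were taken as 1 pair, which left 33 entries among 19775 genes in all. Each gene is read by 1 probe set, the one with the highest average on the 4 arrays, taken from those naming that gene alone where there were any. Values are log2 levels after RMA, a method that corrects background and brings the arrays to a common distribution.

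There were 4 arrays of total RNA, 1 per condition. The first held cells with Pam3CSK4 and 24 h of co-culture with platelet-like particles, the second cells with Pam3CSK4 and 12 h of co-culture, the third cells with Pam3CSK4 alone and the last resting cells. They are called the 24 h, 12 h, Pam3CSK4 and resting arrays below. Pam3CSK4 is a synthetic bacterial-type lipopeptide that signals through TLR2 paired with TLR1. The labels name neither the cells the particles came from nor the time the cells of the Pam3CSK4 array spent with the ligand, so particles and time cannot be told apart. With 1 array per condition there was no spread between cultures to test against, so no p-value is given, and the single arrays limit how precise any difference can be. With no replicates, values of a gene's other probe sets are given where they bear on a result, and their range is plotted for every entry.

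Protein folding stress is met by separate programmes. In the ER, the sensors IRE1 (gene ERN1), ATF6 and PERK (gene EIF2AK3) respond to unfolded protein: IRE1 splices XBP1 mRNA, ATF6 is released to the nucleus, and together they raise ER chaperones and degradation factors. PERK and the related kinases GCN2, HRI and PKR phosphorylate the translation factor eIF2, which lowers general translation and favours translation of ATF4, whose targets make and import amino acids. The heat shock factor HSF1 serves the cytosol and raises the HSP70, HSP90, HSP40 and small heat shock protein families. Array levels read the amount of mRNA, so XBP1 splicing and ATF4 translation were not measured.

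The arrays were checked on a few features before the stress genes were described. The median value was between 6.17 and 6.22 on each. GAPDH control probe sets near the 3′ end read above those near the 5′ end, a gap that widens as RNA degrades. The gap was 0.70 log2 on the 24 h, 0.92 on the 12 h, 0.59 on the Pam3CSK4 and 2.16 on the resting array. For ACTB, another control, it was wider on each array, at 2.90, 3.17, 2.91 and 3.41 in the same order. Of the monocytic markers, 7 had a value and all 7 reached the table median of 6.19 on at least 1 array. Among them LYZ, the lysozyme gene, was at 12.98 to 13.81, while MPO reached that level on the resting array alone, at 7.01. All 4 endothelium and fibroblast markers, all 6 erythroid markers and 2 of 3 lymphocyte markers reached it too. Reaching that level thus does not single out a cell type. Of 8 platelet and megakaryocyte markers 6 reached that level, and PF4 and PPBP, which define platelets, stayed under it. The median of the 8 was 6.32 on the 24 h, 6.68 on the 12 h, 6.34 on the Pam3CSK4 and 6.41 on the resting array. Fetal globin, read by a probe set for HBG1 and HBG2 together, was at 9.95, 9.20, 6.57 and 6.85 in the same order. In RNA of whole cultures, fewer cells of a type and less RNA per cell cannot be told apart.

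**Figure D1:**
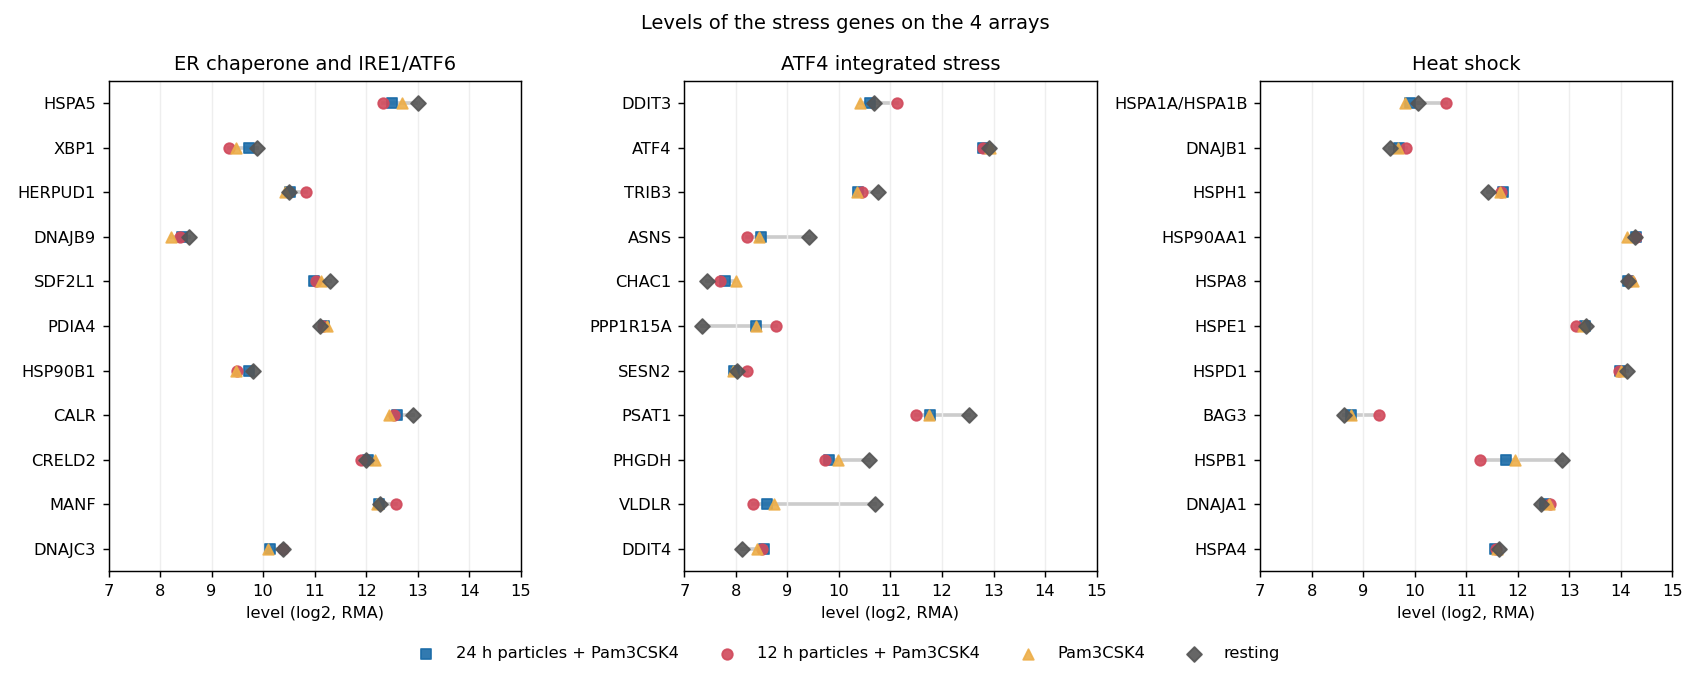
Log2 levels (horizontal axes) of the 33 entries in 3 panels, 1 per arm, with 1 marker per array and a grey bar from the lowest to the highest array. VLDLR, HSPB1 and PPP1R15A have long bars, while HSPA8, HSPD1 and ATF4 lie within 0.2 log2; levels of different genes come from different probes and are not to be compared.

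All 33 entries reached 6.19 on at least 1 array, so none was left out by the level filter that 13410 of the 19775 genes passed. The span from the lowest to the highest array was at least 1.5-fold, 0.58 on the log2 scale, for 10 entries: HSPA5, DDIT3, ASNS, PPP1R15A, PSAT1, PHGDH, VLDLR, the HSPA1A and HSPA1B pair, BAG3 and HSPB1. That is 30.3% of the entries, against 24.9% of all genes past the filter. Another 7 stayed within 0.2 log2 on all 4 arrays, namely PDIA4, ATF4, HSP90AA1, HSPA8, HSPD1, DNAJA1 and HSPA4, or 21.2% against 21.0%, so both shares were near those of all genes. ATF4, the transcription factor that gives its name to the arm, was at 12.79 on the 24 h, 12.79 on the 12 h, 12.93 on the Pam3CSK4 and 12.90 on the resting array.

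Pam3CSK4 and resting cells differed most in the ATF4 arm, where genes lay far out in both directions. Between the Pam3CSK4 and resting arrays 1 of the 33 entries was at least 2-fold higher, PPP1R15A, and 1 at least 2-fold lower, VLDLR. Of all genes past the filter, 4.14% were higher by that much and 1.71% lower. At 1.5-fold the counts were 1 higher and 5 lower, against 7.58% and 5.89% of all genes. The 5 were VLDLR, ASNS, PSAT1 and PHGDH of the ATF4 arm and HSPB1 of the heat shock arm. The GAPDH and ACTB control gaps differed between these arrays as given above, and their part in these differences was not tested.

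VLDLR, the very low density lipoprotein receptor, is a known target of ATF4. It was at 8.61 on the 24 h, 8.34 on the 12 h, 8.74 on the Pam3CSK4 and 10.71 on the resting array. The resting array thus stood alone, 3.92-fold above the Pam3CSK4 array, and the 3 treated arrays lay close together. Only 0.224% of all tested genes were as far down with Pam3CSK4. VLDLR has 1 probe set here, so no second reading was at hand.

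ASNS, PSAT1 and PHGDH, which encode enzymes of amino acid synthesis, were at least 1.5-fold lower with Pam3CSK4 on the probe sets used. ASNS, which makes asparagine, was at 8.49, 8.22, 8.44 and 9.41 on the 24 h, 12 h, Pam3CSK4 and resting arrays, 1.96-fold lower with Pam3CSK4 than at rest. This rests on a probe set of suffix _s_at; the other ASNS probe set was at 3.29 with Pam3CSK4 and 3.28 at rest, under the filter, a difference of 0.0073. PSAT1, the transaminase of serine synthesis, was at 11.78, 11.49, 11.74 and 12.53 in the same order. Its resting value was the highest, and the Pam3CSK4 difference was -0.79 on this probe set and -0.03 on its other one. PHGDH, which catalyses the entry step of serine synthesis, was at 9.80, 9.73, 9.98 and 10.58. Its probe sets gave -0.61 and -0.49, the smaller on a probe set that also names MZT2A and MZT2B. For ASNS, PSAT1 and PHGDH the 12 h array was the lowest and the resting array the highest.

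ASNS is a textbook target of ATF4 through a short promoter element, and its promoter is shown for that reason. Sequences here and below are RefSeq's GRCh38.p14 windows from 250 bases before to 50 after a gene's start; the 200 bases just before the start are printed, 5′ to 3′ on the strand of the gene. The ASNS stretch is chr7:97872409-97872608 on the minus strand. The capitals mark TGATGAAA, a match to the C/EBP-ATF response element (CARE), searched as TGATGNAA, and an overlapping match GAAACTTC to the heat shock half-element pair GAANNTTC.
ASNS: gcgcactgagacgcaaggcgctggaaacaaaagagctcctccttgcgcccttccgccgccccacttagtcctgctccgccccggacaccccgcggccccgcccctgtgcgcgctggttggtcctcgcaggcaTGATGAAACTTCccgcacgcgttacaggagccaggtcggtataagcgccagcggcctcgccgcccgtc
TGATGNAA on either strand stood in the windows of 2 of the 11 ATF4-arm genes, ASNS and CHAC1, and of 4.46% of all 27305 genes with a window. The 2 genes went apart with Pam3CSK4: ASNS was lower, while CHAC1 differed by 0.56. No match in a window says only that these letters are not in it. The arm was listed by name, so its share is not a test.

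PPP1R15A was the 1 gene of the arm at least 1.5-fold higher with Pam3CSK4. The gene, also called GADD34, encodes the subunit that brings the phosphatase that reverses eIF2 phosphorylation. It was at 8.40 on the 24 h, 8.79 on the 12 h, 8.39 on the Pam3CSK4 and 7.35 on the resting array. The resting array was the lowest, and its 2 probe sets gave differences of 1.04 and 1.06 between the Pam3CSK4 and resting arrays. CHAC1, which degrades glutathione, was at 7.78, 7.69, 7.99 and 7.44 in the same order, highest with Pam3CSK4. DDIT4, an inhibitor of mTORC1 signalling, was 1.22-fold higher with Pam3CSK4 than at rest, at 8.40 against 8.12. DDIT3, also called CHOP, the factor that couples prolonged stress to cell death, was 1.22-fold lower, at 10.40 against 10.68. TRIB3, a pseudokinase that holds ATF4 signalling in check, differed by -0.41 on the probe set used and by 0.01 on its other. SESN2, a stress sensor of amino acid supply, differed by -0.08 and 0.20 on its 2 probe sets. The median of the 11 ATF4-arm genes was -0.28, against -0.05 over all tested genes.

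ER genes lay slightly lower with Pam3CSK4, none by 1.5-fold. Of the 11, 9 were below 0 and 2 above, with a median of -0.29; of all tested genes 42.2% were above 0. The 27 other ER genes described further on had 17 above 0 and a median of 0.04. HSPA5, also called BiP, the main ER HSP70 chaperone, was at 12.51 on the 24 h, 12.32 on the 12 h, 12.69 on the Pam3CSK4 and 13.01 on the resting array. It was thus highest at rest and lowest at 12 h, but its other probe set gave -0.07 for Pam3CSK4 against rest. XBP1 was at 9.73, 9.34, 9.48 and 9.88, a difference of -0.40 for Pam3CSK4, with 0.08 on its other probe set. CALR, a lectin chaperone of the ER, ranged from -0.46 to 0.19 over 3 probe sets. HSP90B1, also called GRP94, the HSP90 of the ER, ranged from -0.40 to 0.01 over 4 probe sets, of which 2 also name a microRNA inside the gene. DNAJB9, a co-chaperone of BiP, ranged from -0.36 to 0.21, and DNAJC3, an inhibitor of the eIF2 kinases that also assists BiP, from -0.51 to 0.02. With Pam3CSK4 against rest, only 7 of the 20 entries with several probe sets past the filter had 1 sign throughout. Against Pam3CSK4 it was 9 of the 20 at 12 h and 6 at 24 h, and for 24 h against 12 h it was 13. For Pam3CSK4 against rest, CRELD2 was at 0.18 and PDIA4 at 0.14 with -0.17 on its other probe set. SDF2L1 was at -0.17, HERPUD1 at -0.07 and MANF at -0.05.

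Heat shock genes were nearly level between these arrays except for HSPB1. HSPB1, also called HSP27, a small heat shock protein that holds unfolded protein in solution, was at 11.78 on the 24 h, 11.27 on the 12 h, 11.94 on the Pam3CSK4 and 12.85 on the resting array. Each treated array was below the resting one, and the Pam3CSK4 array was 1.88-fold lower. HSPB1 has 1 probe set here, of suffix _s_at. The other 10 entries differed by -0.25 to 0.23, and the median of the 11 was -0.05, as over all genes. The Pam3CSK4 array was the lowest of the 4 for 11 of the 33 entries, or 33.3%, and for 6 of the 11 in the ER arm, against 12.7% of all tested genes. At the ends of the heat shock range were the HSPA1A and HSPA1B pair and HSPH1, an HSP110 that acts as exchange factor for HSP70. HSPH1 ran from -0.21 to 0.23 over its 3 probe sets, so its direction was not settled. HSPA8, the constitutive HSP70, is read by 4 probe sets, all of which also name small nucleolar RNAs inside the gene. Of these 3 gave 0.0076 to 0.12 and the other 0.71.

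**Figure D2:**
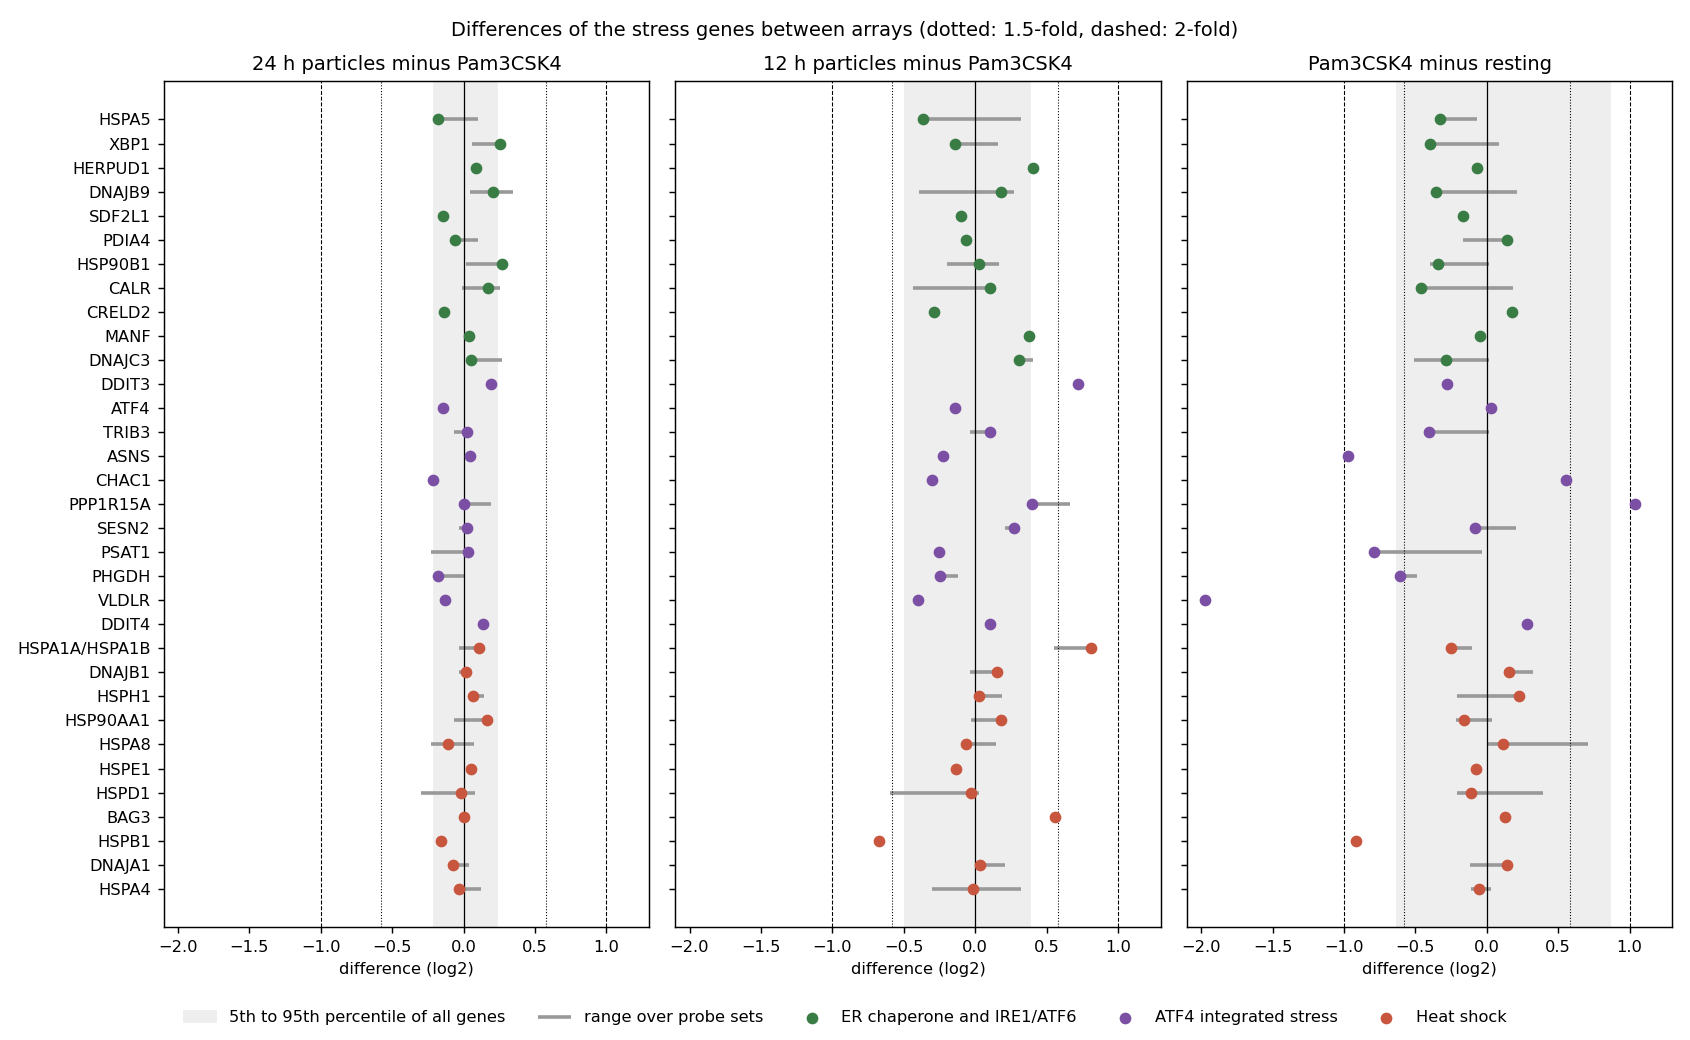
Log2 differences (horizontal axes) of the 33 entries in 3 comparisons; points are the probe set used, grey bars the range over all probe sets past the filter, and shading the middle 90% of all tested genes. VLDLR at -1.97 and PPP1R15A at 1.04 lie farthest out with Pam3CSK4, the HSPA1A and HSPA1B pair at 0.81 and DDIT3 at 0.72 at 12 h, and no entry reaches 1.5-fold at 24 h.

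After 12 h with the particles, the inducible HSP70 pair and DDIT3 stood above the Pam3CSK4 array and HSPB1 below it, while the medians of the arms stayed near 0. No entry was 2-fold different; of all tested genes 0.41% were higher by that much and 0.35% lower. At 1.5-fold, 2 entries were higher, the HSPA1A and HSPA1B pair and DDIT3, and 1 lower, HSPB1, against 1.9% and 2.86% of all tested genes. The median was 0.02 for the heat shock arm, 0.03 for the ER arm and -0.14 for the ATF4 arm, with -0.05 over all genes. The 12 h array was the highest of the 4 for 11 of the 33 entries, or 33.3%, and for 24.9% of all tested genes. It was the lowest for 10, or 30.3%, against 41.3% of all genes. The platelet marker median and fetal globin also differed between these arrays, as given above, and their part in these differences was not tested.

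HSPA1A and HSPA1B encode the stress-inducible HSP70 of the cytosol and lie near each other on chromosome 6. The pair was at 9.92 on the 24 h, 10.61 on the 12 h, 9.80 on the Pam3CSK4 and 10.05 on the resting array. The 12 h array stood above the others on each of the 3 probe sets, with differences of 0.81, 0.81 and 0.55 from the Pam3CSK4 array. The smallest was that of a probe set that also names HSPA1L. On the probe set used the 12 h array was 1.75-fold higher, and 0.828% of all tested genes were as far up. BAG3, the co-chaperone that links HSP70 to autophagy, was at 8.76, 9.31, 8.75 and 8.63 in the same order. Its 12 h value was the highest, 1.47-fold above the Pam3CSK4 array, just under the limit, on the 1 probe set there is.

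The 2 HSP70 promoters are shown because the arrays could not tell the genes apart. The stretch of HSPA1A is chr6:31815343-31815542 and that of HSPA1B is chr6:31827538-31827737, both on the plus strand. The capitals mark GAATATTC, a head-to-head pair of heat shock half-elements, searched as GAANNTTC.
HSPA1A: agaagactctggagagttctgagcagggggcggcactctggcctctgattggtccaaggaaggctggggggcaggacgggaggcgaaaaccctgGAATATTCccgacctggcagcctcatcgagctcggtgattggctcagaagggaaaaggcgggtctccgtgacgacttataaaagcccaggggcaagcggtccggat
HSPA1B: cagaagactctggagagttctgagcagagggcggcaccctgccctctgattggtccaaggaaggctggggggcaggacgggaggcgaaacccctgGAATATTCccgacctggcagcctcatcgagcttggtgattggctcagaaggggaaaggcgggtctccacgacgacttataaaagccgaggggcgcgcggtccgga
Aligned end to end, 188 bases were identical, 11 differed and 2 were gaps, and the element begins at position -106 in HSPA1A and -105 in HSPA1B, counted from the start of the gene. GAANNTTC, which reads alike on both strands, stood in the windows of 8 of the 12 heat shock genes and of 8.21% of all genes. The tail-to-tail form TTCNNGAA stood in 4 of the 12, all of which held the first form as well and overlapping it, and in 9.46% of all genes. Outside the heat shock arm, ASNS held the first form and DDIT4 the other. Since the heat shock genes were listed by name as such, their shares describe the list and are not a test.

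Heat shock genes whose windows hold GAANNTTC ranged from -0.67 to 0.81 at 12 h. Beside the HSP70 pair they were DNAJB1, DNAJA1, HSP90AA1, HSPA8, HSPD1 and HSPB1. DNAJB1, an HSP40 that feeds clients to HSP70, was at 9.70 on the 24 h, 9.84 on the 12 h, 9.68 on the Pam3CSK4 and 9.53 on the resting array. Its 12 h difference was 0.16 on this probe set and -0.04 on the other. HSP90AA1, the inducible HSP90, differed by 0.18, DNAJA1, another HSP40, by 0.03, HSPA8 by -0.06 and the mitochondrial chaperonin HSPD1 by -0.03. Over their probe sets HSPD1 ranged from -0.59 to 0.03. HSPB1 was lower at 12 h than with Pam3CSK4, by 1.59-fold on the 1 probe set there is, and 1.82% of all tested genes were as far down. BAG3, HSPH1, HSPE1 and HSPA4 had no match. HSPH1 differed by 0.02, HSPE1, the partner of HSPD1, by -0.14, and HSPA4, another HSP110, by -0.01 with a range of -0.30 to 0.32 over 4 probe sets.

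In the ATF4 arm, DDIT3 was at 10.59 on the 24 h, 11.12 on the 12 h, 10.40 on the Pam3CSK4 and 10.68 on the resting array. The 12 h array was the highest, 1.65-fold above the Pam3CSK4 array, on the 1 probe set there is, and 1.1% of all tested genes were as far up. PPP1R15A was higher at 12 h by 0.39 and 0.66 on its 2 probe sets, and SESN2 by 0.27 and 0.21. The amino acid enzymes and VLDLR lay on the other side, with PSAT1 at -0.25, PHGDH at -0.25, ASNS at -0.23 and VLDLR at -0.40. CHAC1 was at -0.30, ATF4 at -0.14, TRIB3 at 0.10 and DDIT4 at 0.11.

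**Figure D3:**
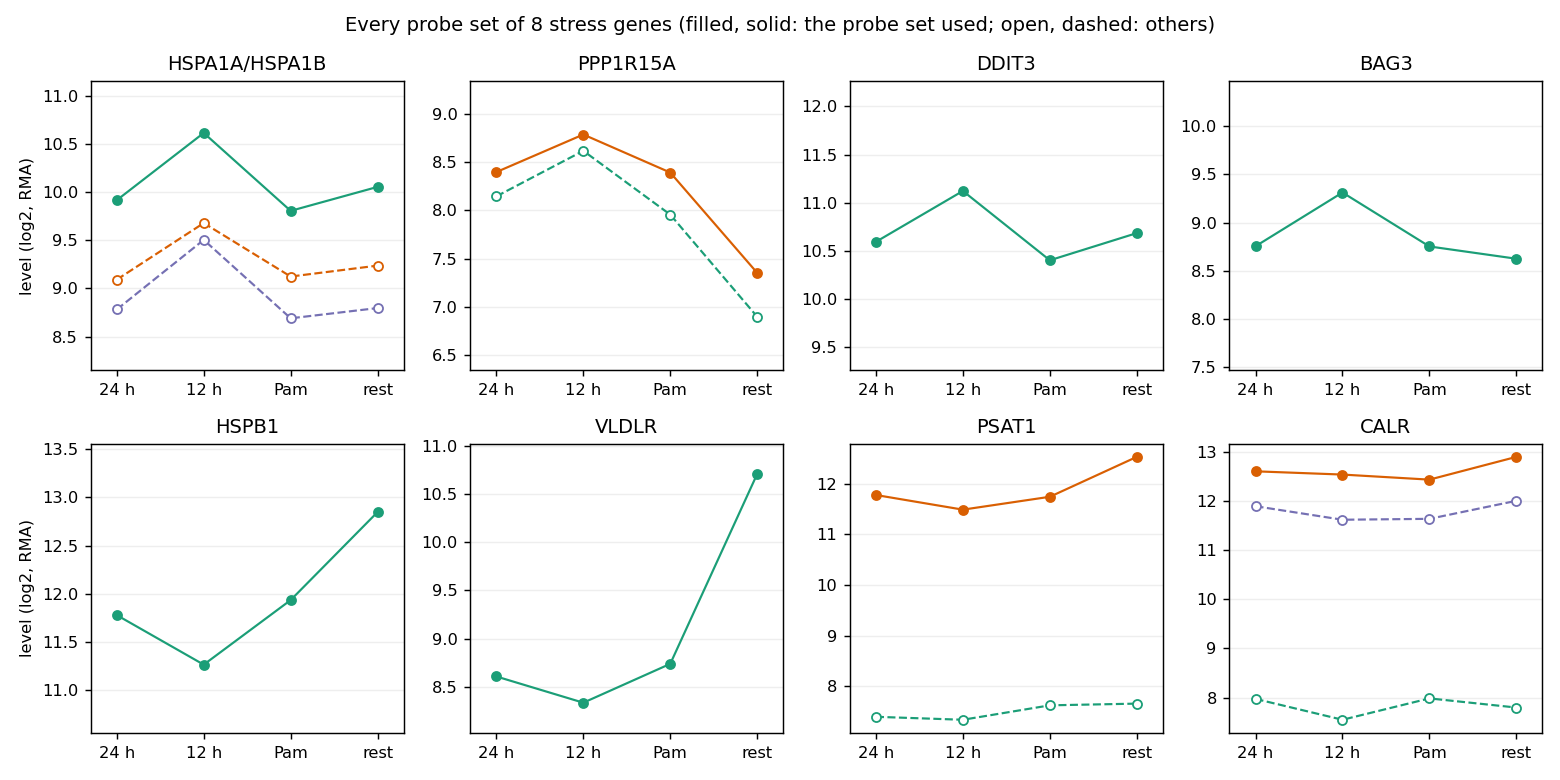
Log2 level (vertical axes, each at least 3 log2 high) of every probe set of 8 entries on the 24 h, 12 h, Pam3CSK4 (Pam) and resting (rest) arrays; lines join the values of 1 probe set and have no meaning as a course of time. The 3 probe sets of the HSPA1A and HSPA1B pair and the 2 of PPP1R15A run in parallel with the 12 h array on top, while those of CALR and PSAT1 differ in slope.

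In the ER arm, HERPUD1, MANF and DNAJC3 lay highest at 12 h against Pam3CSK4, none by 1.5-fold. HERPUD1, which organises disposal of misfolded ER protein, was at 10.51 on the 24 h, 10.83 on the 12 h, 10.43 on the Pam3CSK4 and 10.49 on the resting array. MANF, a secreted ER stress protein, was at 12.25, 12.59, 12.21 and 12.26 in the same order. DNAJC3 was at 10.14, 10.39, 10.09 and 10.38. For HERPUD1 and MANF the 12 h array stood alone at the top, by 0.41 and 0.38 log2 over Pam3CSK4, and for DNAJC3 the 12 h and resting arrays were about level. DNAJC3 gave 0.31 to 0.40 at 12 h over 3 probe sets past the filter. HSPA5 differed by -0.36 on the probe set used and by 0.32 on its other one, so its direction was not settled. CRELD2, an ER protein that binds unfolded clients, was at -0.29, XBP1 at -0.14 with 0.16 on its other probe set, SDF2L1, a partner of ER HSP40 proteins, at -0.10, and PDIA4, a disulfide isomerase, at -0.07. DNAJB9 was at 0.18, with a range of -0.39 to 0.27, CALR at 0.10 with -0.44 to 0.10, and HSP90B1 at 0.03 with -0.19 to 0.17.

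The promoters of HSPA5 and HERPUD1 are shown because they hold different ER stress elements. The ER stress element (ERSE) was searched as CCAAT, 9 bases of any kind and CCACG, and its shorter form ERSE-II as ATTGG, 1 base of any kind and CCACG, on both strands, with no overlap between them in these windows. The HSPA5 stretch is chr9:125241344-125241543 on the minus strand, with the ERSE in capitals. The HERPUD1 stretch is chr16:56931942-56932141 on the plus strand; its capitals mark TTGCATCA, a CARE on the opposite strand, and then the ERSE-II.
HSPA5: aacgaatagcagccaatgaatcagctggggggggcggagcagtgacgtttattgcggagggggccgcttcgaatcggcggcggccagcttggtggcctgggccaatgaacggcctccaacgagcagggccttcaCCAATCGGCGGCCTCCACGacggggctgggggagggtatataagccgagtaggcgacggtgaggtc
HERPUD1: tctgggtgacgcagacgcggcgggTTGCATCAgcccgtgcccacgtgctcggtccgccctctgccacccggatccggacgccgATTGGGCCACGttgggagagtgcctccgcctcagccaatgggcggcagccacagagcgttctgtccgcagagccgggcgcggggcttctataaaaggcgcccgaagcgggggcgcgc
The ERSE stood in the windows of 5 of the 11 ER genes, HSPA5, HSP90B1, CALR, CRELD2 and XBP1, and of 0.0916% of all genes. ERSE-II stood in 2 of 11, HERPUD1 and SDF2L1, and in 0.0696% of all genes, and neither stood in the windows of the ATF4 or heat shock genes. The ER genes were listed by name for their part in this response, so these shares describe the list and test nothing. The 5 ERSE genes lay between -0.36 and 0.10 at 12 h against Pam3CSK4 on the probe sets used. Other probe sets gave 0.32 for HSPA5, 0.16 for XBP1 and as low as -0.44 for CALR, and HSP90B1 ran from -0.19 to 0.17. Of the 2 ERSE-II genes, HERPUD1 was at 0.41 and SDF2L1 at -0.10, the latter inside the range of the ERSE genes. Whether the kind of element goes with a direction was not tested.

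At 24 h the stress genes had values near the Pam3CSK4 array. None of the 33 entries differed by 2-fold, as did 0.0298% of all tested genes upward and 0.0% downward, or by 1.5-fold, as did 0.164% upward and 0.00746% downward. The medians were 0.05 for the ER arm, 0.02 for the ATF4 arm and 0.0023 for the heat shock arm, against -0.0062 over all genes. For 22 of the 33 entries, or 66.7%, the 24 h array was nearer to the Pam3CSK4 array than the 12 h array was, against 70.7% of all tested genes. The largest differences were 0.27 for HSP90B1, 0.25 for XBP1 and -0.21 for CHAC1. HSP90B1 ranged from 0.02 to 0.27 over its probe sets, XBP1 from 0.06 to 0.25 and DNAJB9 from 0.05 to 0.35. The HSP90B1 probe set used was at 9.74 on the 24 h array. Its brightest probe set, set aside because it also names the microRNA, was at 13.82 there and gave the 0.02. DDIT3 was at 0.19, the HSPA1A and HSPA1B pair at 0.11, HERPUD1 at 0.09, MANF at 0.04, PPP1R15A at 0.0050 and BAG3 at 0.0023. Since 1 Pam3CSK4 array serves both co-culture times and the comparison with rest, these differences are not independent. The count of 22 entries rests on that shared array too and is description only.

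The 24 h and 12 h arrays were also set against each other, a comparison that shares the 12 h array with the one above. The HSPA1A and HSPA1B pair was 1.62-fold lower, the 1 entry past 1.5-fold, with -0.72 to -0.59 over its 3 probe sets. At 1.5-fold, 3.14% of all tested genes were higher and 1.38% lower at 24 h than at 12 h, and at 2-fold 0.343% and 0.224%. BAG3 differed by -0.56, DDIT3 by -0.53, PPP1R15A by -0.39, MANF by -0.34, HERPUD1 by -0.32 and SESN2 by -0.25. On the higher side were HSPB1 at 0.51, XBP1 at 0.40, PSAT1 at 0.29, VLDLR at 0.27 and ASNS at 0.27. XBP1 gave -0.10 on its other probe set. The remaining entries lay between -0.26 and 0.24.

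Other genes of the same pathways, 82 in 3 further lists of which 80 had a probe set, gave a background to the members. With Pam3CSK4, 2 of 29 integrated stress genes were at least 2-fold higher than at rest and 1 lower, near the 4.14% and 1.71% of all tested genes. EIF2AK2 encodes PKR, the eIF2 kinase that senses double-stranded RNA and is itself induced by interferon. It was at 11.03 on the 24 h, 11.59 on the 12 h, 10.78 on the Pam3CSK4 and 9.10 on the resting array. Each treated array was above the resting one, and the difference of 1.68 for Pam3CSK4 was 1.18 or more on every probe set past the filter. ATF3, a stress-induced factor downstream of ATF4 and of inflammatory signals, was at 7.20, 7.80, 7.22 and 6.0, the last under the filter level, a difference of 1.23 for Pam3CSK4. Its other probe set gave -0.11. ALDH1L2, a mitochondrial folate enzyme, was at 7.65, 7.23, 7.51 and 8.92, a difference of -1.41 for Pam3CSK4.

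ERN1, ATF6, the other eIF2 kinases and HSF1 differed by under 1.5-fold in each comparison on the probe sets used. ERN1 was between 7.73 and 7.88 on the 4 arrays, ATF6 between 9.64 and 9.72, EIF2AK3 between 8.42 and 8.51 and EIF2AK1, the haem-regulated kinase HRI, between 10.64 and 10.72. EIF2AK4, the amino acid sensing kinase GCN2, was at 8.92, 8.43, 8.88 and 9.15 on the 24 h, 12 h, Pam3CSK4 and resting arrays, lowest at 12 h. HSF1 was at 9.09, 9.01, 9.09 and 9.38, highest at rest. Other ATF6 probe sets ran from -0.12 to 0.74 for 24 h against 12 h. HSF2 and AHSA1 were not analysed here. Of the 27 ER sensors and folding genes none was 2-fold different in any comparison, with medians of 0.04 for Pam3CSK4 against rest, -0.06 at 12 h and 0.02 at 24 h against Pam3CSK4. The 24 heat shock factors and co-chaperones had medians of -0.10, -0.10 and -0.04, and the 29 integrated stress genes -0.02, 0.06 and 0.03, in the same order of comparisons.

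**Figure D4:**
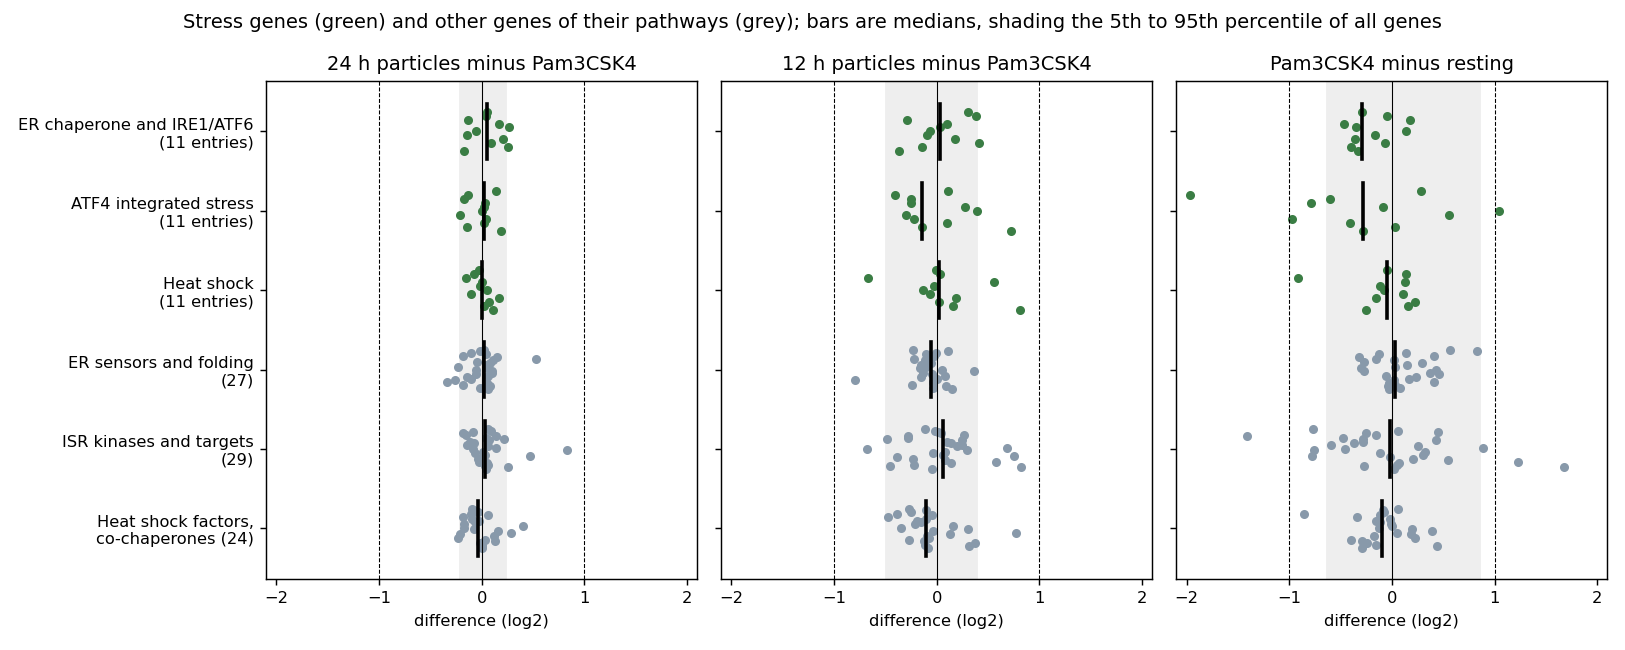
Log2 differences (horizontal axes) of the members (green) and of the other genes of each pathway (grey), 1 point per gene, with the median of each list as a bar and the middle 90% of all tested genes shaded. The ATF4 arm and its wider list spread from about -2 to above 1 with Pam3CSK4, and each list lies around 0 at 24 h.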

How the data were processed

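Per the submitters' processing notes, the deposited values are log2 expression values made by RMA in affy 1.28.1; they run from 2.54 to 15.22, and the sorted columns differed by at most 0.11. A common distribution hides global shifts in RNA content. Each array was placed in its condition from its labels; co-culture titles hold the numbers 13 and 25, while the descriptions give 12 h and 24 h, which were used. No column was left unmapped.

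Platform annotation gave 41091 probe sets 1 gene, 1801 several, and 11721 were unlisted; symbols were checked through RefSeq gene identifiers, which updated 0. A difference is that of 2 log2 values. Genes entered the background if 1 array or more gave their probe set a level of 6.19, the table median; medians over members used all entries. Members, lists, limits and the choice of genes to name (all members, the sensors, and wider pathway genes at least 2-fold different) were chosen with earlier results of these data known. Alternatives were averaged probe sets, no _x_at or _s_at probe sets, cyclic loess (limma 3.58.1, R 4.3.3), filters at the median and 75th percentile, and 1.5-fold and 3-fold limits. Python 3.11.15, numpy 2.4.6 and pandas 2.3.3 were used. The counting was run on simulated arrays with known fold changes, which checks the code and not the spread between cultures.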

Additional observations from a re-analysis of the deposited data

How the results depend on the processing

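Between the Pam3CSK4 and resting arrays, the number of entries at least 2-fold different was 2, and it was 1 without the _x_at and _s_at probe sets, 1 at 3-fold and 6 at 1.5-fold. It was 0 at 12 h against Pam3CSK4 and 0 at 24 h against 12 h, and 3 and 1 at 1.5-fold. Leaving out _x_at and _s_at probe sets left 7 ATF4-arm genes and moved that arm's median to 0.0073 for Pam3CSK4 against rest, 0.10 at 12 h and -0.14 at 24 h against Pam3CSK4; the arm's VLDLR, PSAT1, SESN2 and DDIT4 then had no value, and ASNS was read by its probe set under the filter. The cause was not tested beyond this loss of genes. In the other settings run (averaged probe sets, cyclic loess, either filter, and the highest probe set of any naming, which was chosen after seeing the data) no arm median changed by more than the robust spread of single genes, which stands in for replicates and is not the error of a median. That spread was 0.26 for Pam3CSK4 against rest, 0.23 at 12 h and 0.12 at 24 h against Pam3CSK4, and 0.24 for 24 h against 12 h. Over all settings the ER median ran from -0.29 to -0.16 for Pam3CSK4 against rest and from -0.07 to 0.13 at 12 h. The heat shock median ran from -0.14 to -0.03 for Pam3CSK4 against rest. At 12 h it ran from 0.02 to 0.20, where 0.02 was the main value and 0.20 came without _x_at and _s_at probe sets. Of the single entries' differences, cyclic loess moved none of 132 by more than that spread, averaging moved 7 and the highest probe set of any naming 3; leaving out _x_at and _s_at probe sets moved 15 and left 73 within it, with the rest not measured. No paired analysis was possible because each condition had 1 array, and for the same reason no array could be left out. Signal over background could be judged by level alone.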

Other observations

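Of the 80 wider pathway genes with a probe set, 15 passed 1.5-fold in some comparison. For scale, 24.9% of all genes past the filter spanned at least 1.5-fold over the 4 arrays. That measure is looser, since it also takes in pairs of arrays not compared here. The count is thus not read as a result about these pathways. The 12 genes that stayed under 2-fold are named here after their values were seen. Values are levels on the 24 h, 12 h, Pam3CSK4 and resting arrays, in this order. SLC7A11, the cystine importer, was at 10.68, 11.23, 10.54 and 9.65, and its 3 probe sets gave 0.52 to 0.69 at 12 h against Pam3CSK4. NUPR1, a stress-induced nuclear protein, was at 8.97, 9.26, 8.51 and 9.29, lowest with Pam3CSK4. SLC7A5, an importer of large amino acids, was at 10.29, 10.67, 10.43 and 11.02, highest at rest. EIF4EBP1, a translation inhibitor gene, was at 11.36, 11.18, 11.30 and 12.06, and SERPINH1, the collagen chaperone gene, at 8.92, 8.63, 9.02 and 9.88, each highest at rest.

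PSPH, the last enzyme of serine synthesis, was at 10.32, 9.62, 10.10 and 10.39, lowest at 12 h, and its 2 probe sets gave 0.65 and 0.69 for 24 h against 12 h. CBS, which makes cystathionine, was at 9.03, 8.43, 9.11 and 9.57, with -0.82 to -0.09 over its 3 probe sets at 12 h against Pam3CSK4. CTH, the next enzyme of that pathway, was under the filter level of 6.19 on every array. CREB3, a transcription factor of the ER membrane, was at 9.32, 9.44, 9.33 and 8.51, lowest at rest. DNAJB4, an HSP40 gene, was at 6.34, 6.83, 6.06 and 6.01, highest at 12 h and under the filter level on the Pam3CSK4 and resting arrays. PDIA3, a disulfide isomerase of the ER, was at 10.79, 10.26, 11.05 and 11.03, but its 3 probe sets ran from -0.80 to 0.31 at 12 h against Pam3CSK4. SEC24D, a coat protein gene of ER export, was at 9.35, 8.60, 8.82 and 8.98, and its 2 probe sets gave -0.03 and 0.75 for 24 h against 12 h.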
